A study of Mus musculus with 12 samples.

Results

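The genes described here encode proteins of synaptic vesicles and of the membrane traffic that supplies them. They were taken by gene symbol alone from the annotation of an Affymetrix MG-U74Av2 oligonucleotide array: synaptophysin (Syp), the synapsins Syn1 and Syn2, the ATPase Nsf, and every numbered member of the Syt (synaptotagmin), Vamp (vesicle SNARE), Stx (syntaxin), Snap, Cplx (complexin) and Rab families. The rule found 77 genes on 98 probe sets, out of 8251 genes with a symbol of their own and 12422 probe sets. Each gene was read from its brightest probe set over all 12 arrays, and 63 of the 77 genes were bright enough to be tested among 7069 probe sets. No probe set carried Syn1 as its only symbol, so synapsin 1 is not analysed here.

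RNA came from wild-type mice and from mice with a doxycycline-regulated VP16-CREB transgene, which encodes CREB fused to a viral activation domain so that it is always active. Doxycycline (dox) keeps the transgene silent and its removal switches it on. Whole hippocampus of transgenic (VC) mice was sampled after 1 week off dox (2 arrays), 2 weeks (2 arrays) and 5 weeks (1 array), which together form the induced group of 5 arrays. The never-induced group of 3 arrays held VC mice kept on dox (1 array) and wild-type mice kept under the same conditions (2 arrays). A reversed sample (1 array) had the transgene on for 3 weeks and off again for 2 weeks. Its title calls the mice VC and its description calls them wild type, so it was kept apart. Microdissected CA1, a subfield of the hippocampus, was taken from VC mice after 3 weeks without dox (2 arrays) and from wild-type mice (1 array). Each hippocampal sample pooled 6 to 10 mice, so the p-values measure the spread between pooled samples and not between animals. The sources used here do not give the promoter that drives the transgene, the strain or the age of the mice.

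Transmitter release depends on the fusion of synaptic vesicles with the presynaptic membrane. A SNARE on the vesicle (Vamp) zips together with SNAREs on the plasma membrane (a syntaxin and Snap25), complexins hold the assembled complex ready, and synaptotagmins trigger fusion when they bind calcium. Afterwards Nsf pulls the SNARE complex apart, clathrin adaptors recover the membrane, and Rab GTPases direct vesicles and endosomes between compartments. CREB binds a DNA element called the CRE in the promoters of its target genes, and the VP16 domain activates transcription there without the phosphorylation that CREB itself needs.

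The promoters of the genes were searched for that element because the transgene encodes a CRE-binding activator. RefSeq promoter windows of GRCm38.p6, from 250 bases before to 50 bases after the start of a gene, were matched for 66 of the 77 genes. The full palindromic CRE, TGACGTCA, was present in 2 of these 66 genes (3.03%), against 2.03% of all 27025 genes with a window and 3.6% of the 4388 genes with a window that were tested on the array. The 2 genes are Rab25 and Rab5a, a GTPase of epithelial recycling endosomes and the GTPase of early endosomes. Their elements lie 85 and 28 bases before the start, at chr3:88548337-88548384 on the minus strand and at chr17:53479186-53479233 on the plus strand, shown with the CRE in capitals.
Rab25: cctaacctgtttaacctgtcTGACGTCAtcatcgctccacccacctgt
Rab5a: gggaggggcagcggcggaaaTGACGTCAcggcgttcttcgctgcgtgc
The shorter core TGACG, searched on both strands (CGTCA on the other) and contained in every full CRE, was present in 33 of 66 genes (50%), against 23.0% of all genes. Among tested genes it was present in 28 of 52 (53.8%), against 37.1% of 4388. It was present in 17 of the 38 genes named by the rule in the processing notes. Shown are 4 of these 17, chosen after their values were seen: Vamp4, Stx1a and Rab3b, whose levels by array are plotted below, and Rab3a, the main Rab of synaptic vesicles. The windows lie on the plus strand at chr1:162570357-162570401, chr5:135023318-135023362, chr4:108878853-108878897 and chr8:70754647-70754691, in that order, with the core in capitals.
Vamp4: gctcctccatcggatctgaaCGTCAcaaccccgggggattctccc
Stx1a: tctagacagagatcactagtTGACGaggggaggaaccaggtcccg
Rab3b: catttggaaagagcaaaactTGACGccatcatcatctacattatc
Rab3a: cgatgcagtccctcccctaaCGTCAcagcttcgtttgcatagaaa
A match says only that these letters lie in the window.

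Levels below are log2 intensities, scaled so that every array has the same trimmed mean (1000), with a floor of 65.7 (6.04 on the log2 scale). Values are compared between arrays for 1 gene at a time and not between genes. Creb1, the gene of CREB, checked the labels with 2 tested probe sets, and on both every array with the transgene on lay above its controls. One read 8.31 to 9.63 in induced and 6.04 to 6.33 in never-induced hippocampus, with 8.86 and 9.56 in VC CA1 and 6.04 in wild-type CA1. The other read 8.14 to 9.15 in induced and 6.36 to 7.66 in never-induced hippocampus, with 7.69 and 8.80 in VC CA1 and 6.04 in wild-type CA1. The reversed array read 7.10 on the first and 7.68 on the second. On both it lay above the never-induced and below the induced hippocampal arrays, on the second by a small step above the never-induced ones. Markers of neurons (6 of 7 listed genes on the array) had a summed scaled intensity of 45152 to 55277 in CA1 and 57411 to 69717 in whole hippocampus. Snap25, itself one of the genes described here, is among them, and without it the sums of the other 5 were 28071 to 32484 in CA1 and 32612 to 40739 in hippocampus. In CA1 the summed markers of CA1 pyramidal cells were higher (4910 to 6164 against 3235 to 4624 in hippocampus). Those of choroid plexus were lower (2921 to 3374 in CA1 against 3659 to 14075 in hippocampus), and those of endothelial cells were higher (3760 to 5523 in CA1 against 2222 to 3561 in hippocampus). Sums weigh the brightest markers most. By the median log2 level of the markers, CA1 and hippocampus overlapped for endothelial cells (8.61 to 9.09 against 8.30 to 9.28). They also overlapped for neurons (11.64 to 12.26 against 12.15 to 12.70) and CA1 pyramidal cells (9.93 to 10.58 against 9.24 to 9.98). The sums overlapped for dentate granule cells (2752 to 4256 in CA1 against 3439 to 6405 in hippocampus), astrocytes (16994 to 33476 in CA1 against 12585 to 34538) and microglia (17517 to 49982 in CA1 against 10938 to 39088). The part of these cells in the values of the vesicle genes was not tested. In bulk tissue, fewer cells of a type and less RNA per cell cannot be told apart.

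A pair of arrays had the lowest 3' to 5' ratios in 2 sets of control probe sets and stood apart in 1 set. Low here describes the ratio and does not mean poor RNA. The 3' to 5' ratio of the Gapdh control probe sets was 0.868 on 1-week array 1 and 0.836 on VC CA1 array 2, and 1.05 to 1.36 on the other 10 arrays. The same ratio of the Actb controls was also lowest on this pair, at 1.40 on VC CA1 array 2 and 1.80 on 1-week array 1. There the pair did not stand apart, with 1.83 in wild-type CA1 and 1.80 to 2.81 in hippocampus. VC CA1 array 1 stood apart on the high side, at 3.73. Separately, the deposited values came in 2 scales. The 3 CA1 arrays and wild-type hippocampus array 1 had a deposited trimmed mean of about 500, and the other 8 arrays had 3002. Some of the values below are also given without these arrays.

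**Figure D1:**
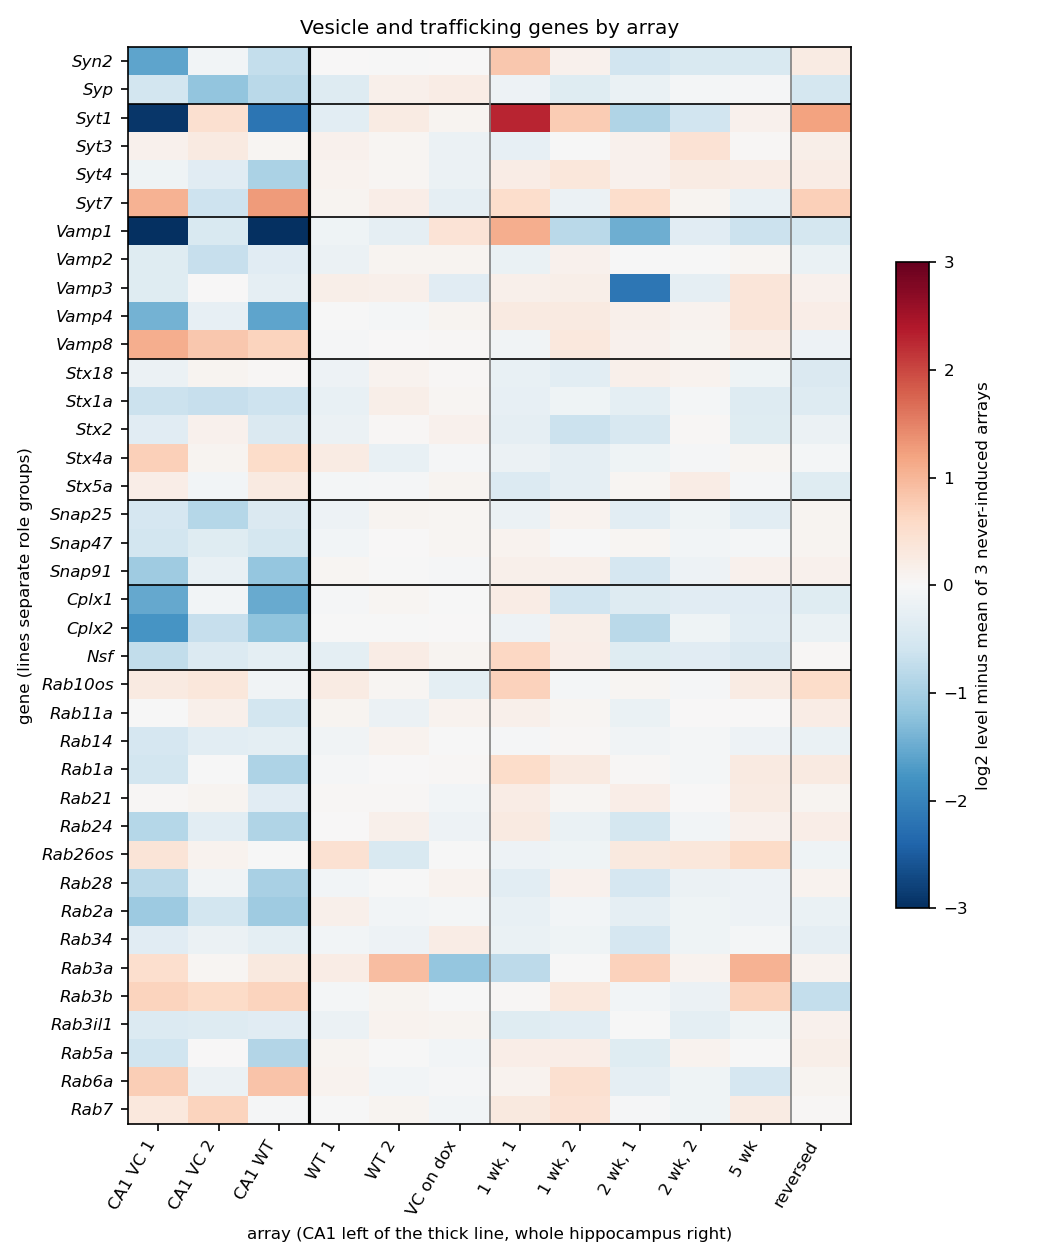
Each row is 1 of the 38 genes named by the rule in the processing notes, and each column is 1 array, with CA1 left of the thick line and whole hippocampus right of it. Colour is the log2 level minus the mean of the 3 never-induced hippocampal arrays, with differences beyond 3 drawn at the end colour. The hippocampal columns are pale except for single cells such as Syt1 on 1-week array 1 (13.08) and Vamp3 on 2-week array 1 (7.12), and most blue cells lie in the CA1 columns.

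The first question was whether these genes changed in hippocampus with the transgene on. None of the 63 tested genes passed the test between the 5 induced and the 3 never-induced arrays (limma, adjusted p of 0.05), where 0.0283% of all 7069 probe sets passed. None had an unadjusted p under 0.05 either, where 3.15% of all tested probe sets had one. Their median log2 difference was -0.02, and the median over all tested probe sets was -0.02. The data bound most of them: the 95% interval of the difference lay within 1.5-fold in either direction for 41 of the 63 genes and within 2-fold for 58. Without 1-week array 1, or without wild-type array 1, again 0 of 63 passed.

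**Figure D2:**
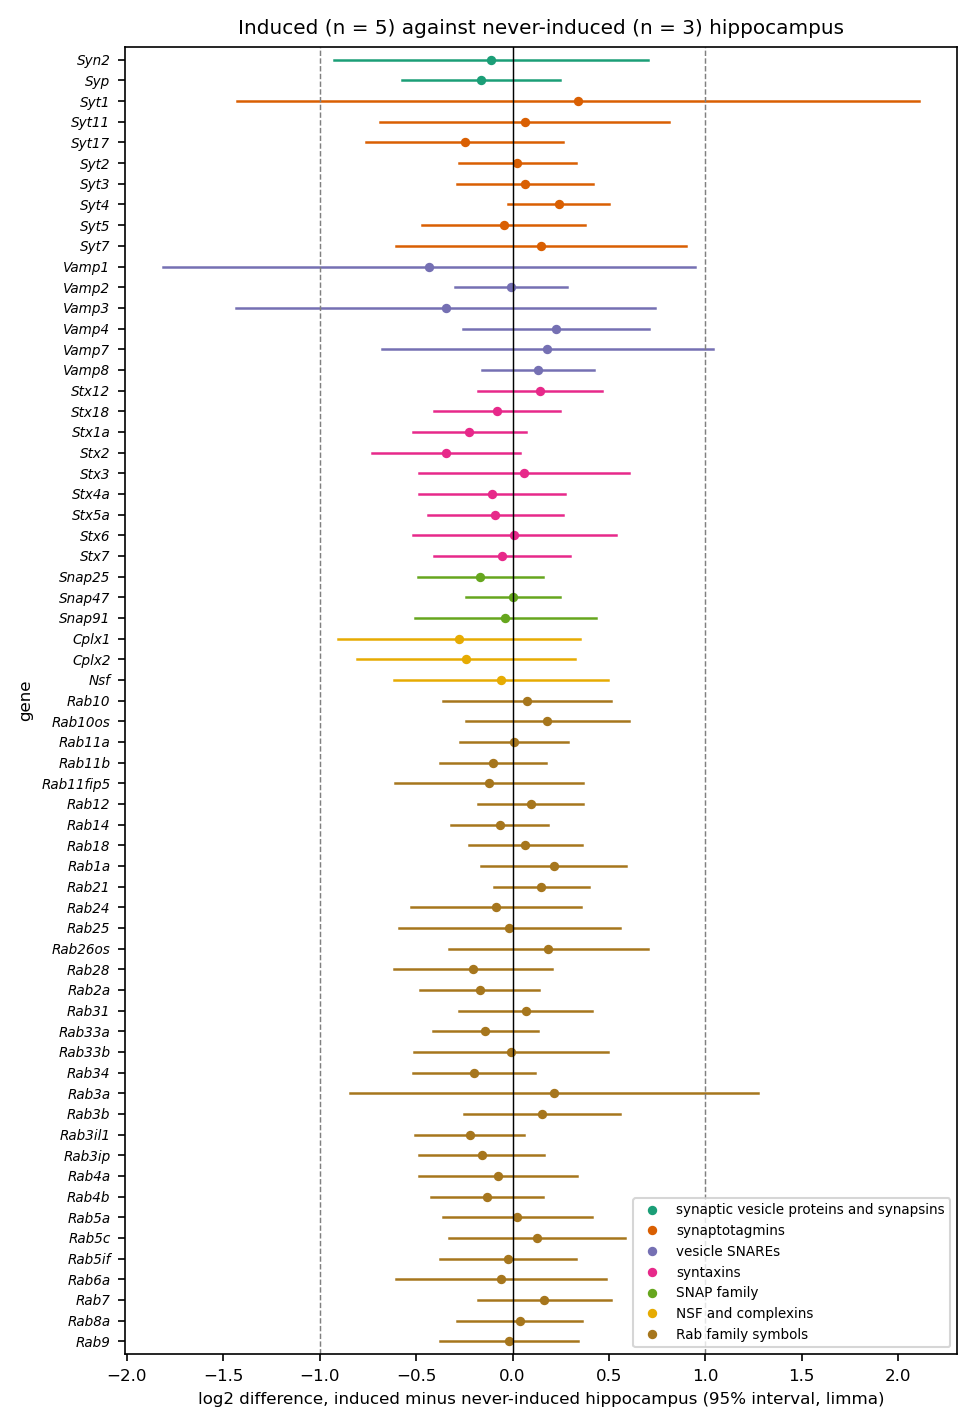
Log2 difference of the 5 induced minus the 3 never-induced hippocampal arrays for the 63 tested genes, with the 95% interval from limma, coloured by role. The dashed lines mark 2-fold in either direction. Every interval contains 0, and the intervals of Syt1 and Vamp1 are the widest.

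Among the proteins of the vesicle itself, Syp, an abundant vesicle membrane protein, averaged 12.54 ± 0.13 in induced hippocampus (SD, n = 5) and 12.71 ± 0.33 in never-induced hippocampus (SD, n = 3). Its difference was -0.16 with a 95% interval of -0.57 to 0.25. Syn2, which tethers the reserve pool of vesicles, averaged 11.78 ± 0.58 in induced (SD, n = 5) and 11.89 ± 0.02 in never-induced hippocampus (SD, n = 3). The spread of Syn2 lay in the induced arrays, which read 12.69 and 12.02 on the 1-week arrays, 11.31 and 11.44 on the 2-week arrays and 11.44 on the 5-week array.

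The 8 tested synaptotagmins had a median difference of 0.06. Syt4, an activity-regulated synaptotagmin whose first calcium-binding domain lacks normal calcium binding, had the smallest p of all 63 genes. Its 1-week arrays read 9.65 and 9.76, its 2-week arrays 9.55 and 9.66 and its 5-week array 9.64, against 9.52 and 9.47 in wild type and 9.24 on dox. The groups did not overlap, with each induced value higher, but the difference was 0.24 (SE 0.12, adjusted p = 0.999, limma). Syt1, the calcium sensor of fast release, read 13.08 and 11.55 on the 1-week arrays, 9.90 and 10.23 on the 2-week arrays and 10.93 on the 5-week array, against 10.47 and 11.05 in wild type and 10.87 on dox. The induced arrays of Syt1 lay on both sides of the never-induced ones, and its interval ran from -1.43 to 2.11. Its difference was 0.34 with all arrays and -0.15 without 1-week array 1.

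Among the 6 tested vesicle SNAREs, Vamp4, which works at the trans-Golgi network and endosomes, was the other gene with no overlap. Its 1-week arrays read 11.43 and 11.42, its 2-week arrays 11.31 and 11.27 and its 5-week array 11.52, against 11.15 and 11.11 in wild type and 11.24 on dox. Its difference was 0.23 (SE 0.22, adjusted p = 0.999, limma). A gain without overlap was thus seen in 2 of 63 genes (3.17%), where 1.71% of all tested probe sets showed one, and a loss without overlap was seen in 0 of 63, where 1.66% of all probe sets showed one. Vamp2, the main vesicle SNARE of forebrain synapses, averaged 14.31 ± 0.12 in induced (SD, n = 5) and 14.31 ± 0.15 in never-induced hippocampus (SD, n = 3). Its interval of -0.30 to 0.28 was among the narrower ones. Vamp1, a close relative of Vamp2, ranged from 7.72 at 2 weeks to 10.27 at 1 week, with both extremes in induced arrays. Its difference was -0.43 with all arrays and -0.82 without 1-week array 1.

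Of the 9 tested syntaxins, which include the plasma membrane partners, 3 had a positive difference, and their median was -0.08. Stx1a, the syntaxin of synaptic release, read 11.40 and 11.52 on the 1-week arrays, 11.36 and 11.58 on the 2-week arrays and 11.25 on the 5-week array, against 11.42 and 11.83 in wild type and 11.70 on dox. The groups overlapped, and the difference of -0.22 (SE 0.13) did not pass (adjusted p = 0.999, limma). Stx2, a syntaxin of many cell types, had the most negative value of the 9, at -0.35 (SE 0.17). Snap25 averaged 14.75 ± 0.18 in induced (SD, n = 5) and 14.92 ± 0.14 in never-induced hippocampus (SD, n = 3), a difference of -0.17 with an interval of -0.49 to 0.16. Snap91, the clathrin assembly protein AP180, and Snap47, a SNARE without the membrane anchor of Snap25, had differences of -0.04 and 0.00.

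Nsf and the complexins had differences of -0.06, -0.28 (Cplx1) and -0.24 (Cplx2), with all 3 intervals spanning 0. Cplx1 read 12.68 and 11.90 on the 1-week arrays, 12.09 and 12.13 on the 2-week arrays and 12.14 on the 5-week array, against 12.42 and 12.52 in wild type and 12.46 on dox. Of the induced arrays of Cplx1, 1-week array 1 lay above all 3 never-induced arrays and the other 4 lay below them.

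The Rab symbols formed the largest group, with 39 genes of which 32 were tested. They comprise 33 GTPases, 4 proteins named for an interaction with a Rab, and 2 transcripts named as opposite strand to a Rab gene. Their median difference was -0.01, with 15 of 32 on the positive side, and their range was -0.22 to 0.21. Rab3a read 8.54 and 9.31 on the 1-week arrays, 10.01 and 9.42 on the 2-week arrays and 10.35 on the 5-week array, against 9.52 and 10.25 in wild type and 8.16 on dox. The never-induced arrays of Rab3a alone spanned more than 2 log2 units, so its interval was wide, at -0.85 to 1.27. Rab3il1, an exchange factor, and Rab34 had the smallest p-values of the group, with differences of -0.22 and -0.20 (adjusted p = 0.999 for both, limma). Rab5a and Rab25, the genes with a full CRE, had differences of 0.02 and -0.02.

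The genes with the short CRE core were also set beside those without it. Of the 28 tested genes with the core, 16 had a positive difference between induced and never-induced hippocampus, with a median of 0.02, and of the 24 without it 8 did, with a median of -0.06. No test was made between these sets, which were formed by a feature that the members share with many other genes.

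The time of induction was examined next. No gene of the 63 passed at 1 week, where 0.0283% of all probe sets passed, at 2 weeks (0.156% of all) or at 5 weeks (0.99% of all, with 0.863% higher and 0.127% lower) against never-induced hippocampus. The counts at an unadjusted p under 0.05 were 0, 1 and 1 of 63, where 5.01%, 4.46% and 7.3% of all tested probe sets had one. The median difference of the 63 genes was 0.04 after 1 week, -0.12 after 2 weeks and -0.04 after 5 weeks, where the medians over all tested probe sets were -0.01, -0.01 and -0.03. At 2 weeks 19 of 63 genes had a positive difference (30.2%), against 48% of all tested probe sets. Array 1 of the 2-week group was the lowest of the 9 hippocampal arrays for 21 of the 63 genes, more than any other array. That count was not made over all probe sets, so it cannot be read as particular to these genes.

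The genes closest to the threshold at single times differed. Vamp3, a vesicle SNARE found in most cells, had a difference of -1.21 at 2 weeks (SE 0.47, unadjusted p = 0.0299, adjusted p = 1, limma). That value rested on 1 array, since Vamp3 read 7.12 and 9.02 at 2 weeks, against 9.46 and 9.43 in wild type and 8.95 on dox. Without that array the difference was -0.27. At 5 weeks the smallest p was that of Rab3b, a relative of Rab3a. It read 9.85 at 5 weeks, above 9.24 and 9.52 at 1 week and 9.11 and 9.03 at 2 weeks, with never-induced arrays at 9.13, 9.27 and 9.18. Its difference at 5 weeks was 0.66 (SE 0.19, unadjusted p = 0.00794) and did not pass after adjustment (adjusted p = 0.31, limma).

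Between 5 weeks and 1 week, 0 of 63 genes passed, where 0.637% of all probe sets passed (0.538% higher and 0.099% lower), and 3 had an unadjusted p under 0.05. These were Nsf, Rab3b and Rab6a, a Golgi GTPase. Over all tested probe sets 6.85% had an unadjusted p that small, so the count is no mark of these genes. Nsf read 12.68 at 5 weeks, against 13.72 and 13.31 at 1 week, a difference of -0.84 (SE 0.28, adjusted p = 0.511, limma) that was -0.63 without 1-week array 1. The levels of Nsf at 2 weeks, 12.74 and 12.75, lay next to the value at 5 weeks and just under the lowest never-induced value of 12.81. The 5-week group is 1 array, whose spread was taken from the replicated groups. Markers of other cells moved with time as well. The summed intensity of 9 microglia and macrophage genes was 11004 to 39088 in induced and 10938 to 12987 in never-induced hippocampus, where Fcer1g was at the floor. At 5 weeks 7 of the 8 tested were higher than in never-induced hippocampus, and Cx3cr1 was lower. In induced and never-induced hippocampus, 4 astrocyte genes summed to 13908 to 34538 and 12585 to 14454. For 7 interneuron genes the sums were 32915 to 48293 and 35256 to 38244. For 5 dentate granule cell genes they were 3439 to 6175 in induced and 5852 to 6405 in never-induced hippocampus. Their part in the values of the vesicle genes was not tested.

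**Figure D3:**
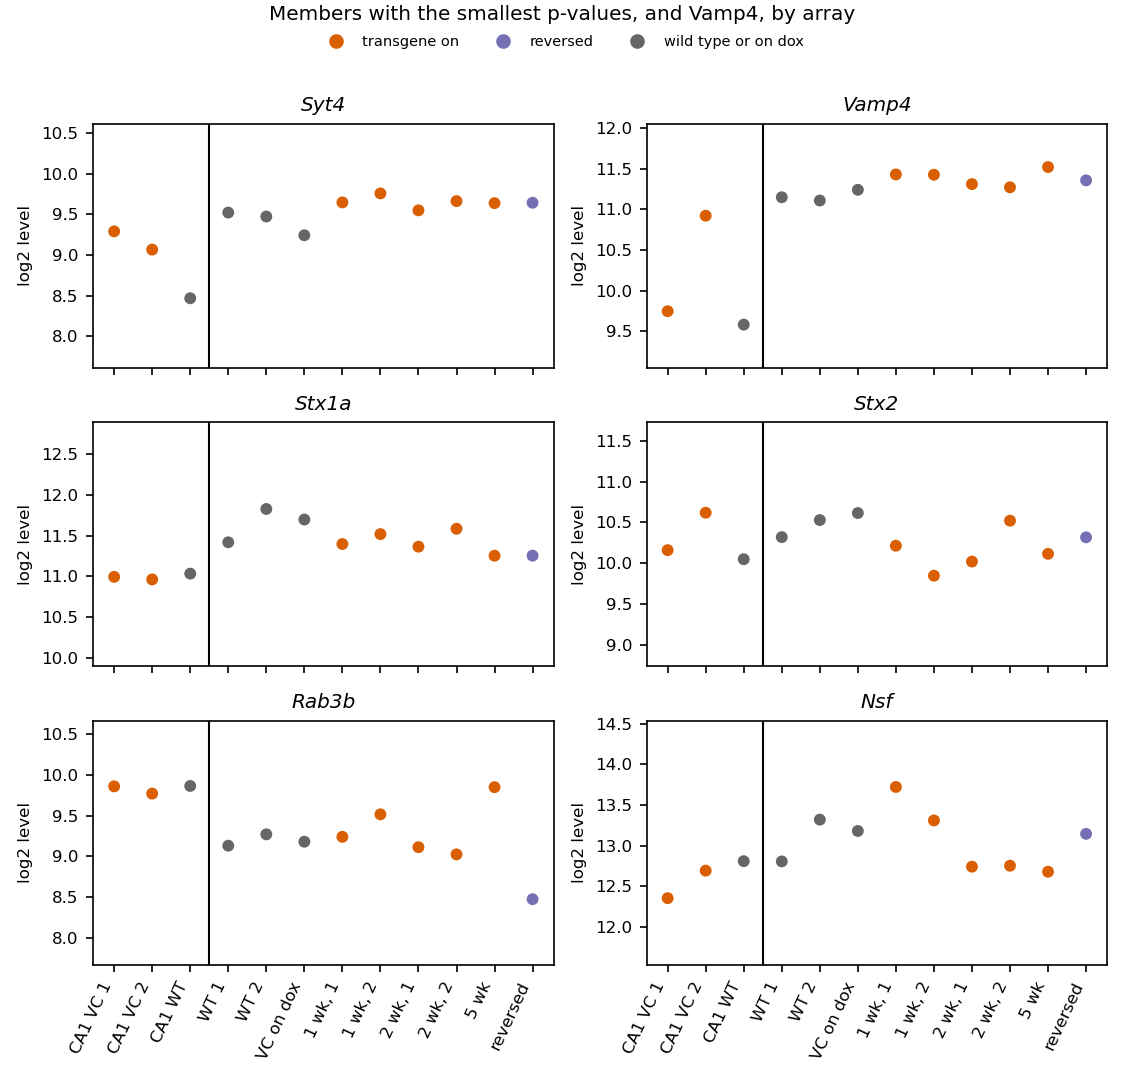
Log2 level of 6 genes on each array, with CA1 left of the line and whole hippocampus in order of time right of it. Each point is 1 array. Syt4 and Vamp4 are higher on each induced array than on the 3 never-induced arrays by small steps, Rab3b is highest in hippocampus at 5 weeks (9.85) and lowest in the reversed sample (8.47), and Nsf is highest on 1-week array 1 (13.72).

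After the transgene had been switched off again, no gene of the 63 passed against never-induced or against induced hippocampus. None of the 7069 probe sets passed either (0% in both comparisons). An unadjusted p under 0.05 was seen for 2.55% of all tested probe sets against never-induced and 2.56% against induced hippocampus (limma). Of the 63 genes 1 had one in each comparison, and in both this was Rab3b. It read 8.47 in the reversed sample, the lowest of all 12 arrays. Its difference was -0.88 (SE 0.27) from induced and -0.72 (SE 0.29) from never-induced hippocampus. Both comparisons rest on the same reversed array. Syt4 read 9.64 in that sample and Vamp4 11.36, both inside the range of the induced arrays and above the never-induced ones. Syt1 read 12.02, above every never-induced array.

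In CA1 the VC mice were compared with the wild-type sample. None of the 63 genes passed, where 0.467% of all 7069 probe sets passed (0.382% higher and 0.0849% lower), and 3 had an unadjusted p under 0.05 (limma). Over all tested probe sets 10% had an unadjusted p that small. The median difference was 0.07, with -0.02 over all tested probe sets, and the interval lay within 2-fold for 34 of 63 genes. Leaving out 1 VC CA1 array moved that median to between -0.005 and 0.17. Syt4 had the smallest p here too. It read 9.29 and 9.07 in VC CA1, against 8.47 in wild-type CA1, a difference of 0.71 (SE 0.20, unadjusted p = 0.00493, adjusted p = 0.222, limma). Both VC arrays lay above the wild-type array for Rab11a, a GTPase of recycling endosomes, with 11.61 and 11.77 in VC CA1 against 11.07 in wild-type CA1. The same held for Rab1a, which acts between endoplasmic reticulum and Golgi, with 9.85 and 10.38 in VC CA1 against 9.47 in wild-type CA1. Their differences were 0.61 (adjusted p = 0.33, limma) and 0.65 (adjusted p = 0.477, limma). Without VC CA1 array 2 they were 0.53 and 0.38, and Syt4 was at 0.82. With 1 wild-type array, the spread of that group was taken from the other groups.

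The difference between the transgene's effect in CA1 and its effect in hippocampus was tested for each gene, and 0 of 63 passed, where 0.0566% of all probe sets passed. The one gene with an unadjusted p under 0.05 was Rab11a, at 0.61 (SE 0.24, adjusted p = 0.801, limma), where 5.81% of all tested probe sets had one. For Syt4 the effects were 0.71 in CA1 and 0.24 in hippocampus, and they did not differ beyond error (0.47, SE 0.23, adjusted p = 0.897, limma). Microglia and macrophage markers were summed at 46143 to 49982 in VC CA1 and 17517 in wild-type CA1, and their part in these values was not tested.

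The replicate arrays of VC CA1 lay far apart for several genes of release. Syt1 read 7.89 and 11.29 on the VC CA1 arrays, against 8.60 in wild-type CA1. Vamp1 read 6.04 (the floor) and 8.71 in VC CA1, against 6.04 in wild-type CA1. VC CA1 array 2 exceeded array 1 by more than 1 log2 unit for 8 genes, namely Syt1, Vamp1, Syn2, Syt11, Cplx1, Vamp7, Vamp4 and Cplx2. Over all tested probe sets 7.12% did so, and between the wild-type, 1-week and 2-week pairs of hippocampal arrays 1.30%, 2.09% and 1.12% were higher by that much on array 1 than on array 2. Syt7, a sensor of slow release, ran the other way, with 8.36 on array 1 and 6.68 on array 2. In hippocampus Syt1 and Vamp1 were higher on 1-week array 1 than on 1-week array 2 by more than 1 unit. Over all 12 arrays Syt1 ranged across 5.20 log2 units and Vamp1 across at least 4.23, where the median range of all tested probe sets was 1.05 and its 95th percentile 2.82. Syt1 and Vamp1 were highest of all 12 arrays on 1-week array 1, and highest of the 3 CA1 arrays on VC CA1 array 2, the 2 arrays with the lowest Gapdh ratio. Syt1 also read 12.02 on the reversed array, whose Gapdh ratio was 1.05. The part of RNA quality in these values was not tested. Syt11 and Vamp7 were chosen for mention after their values were seen.

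**Figure D4:**
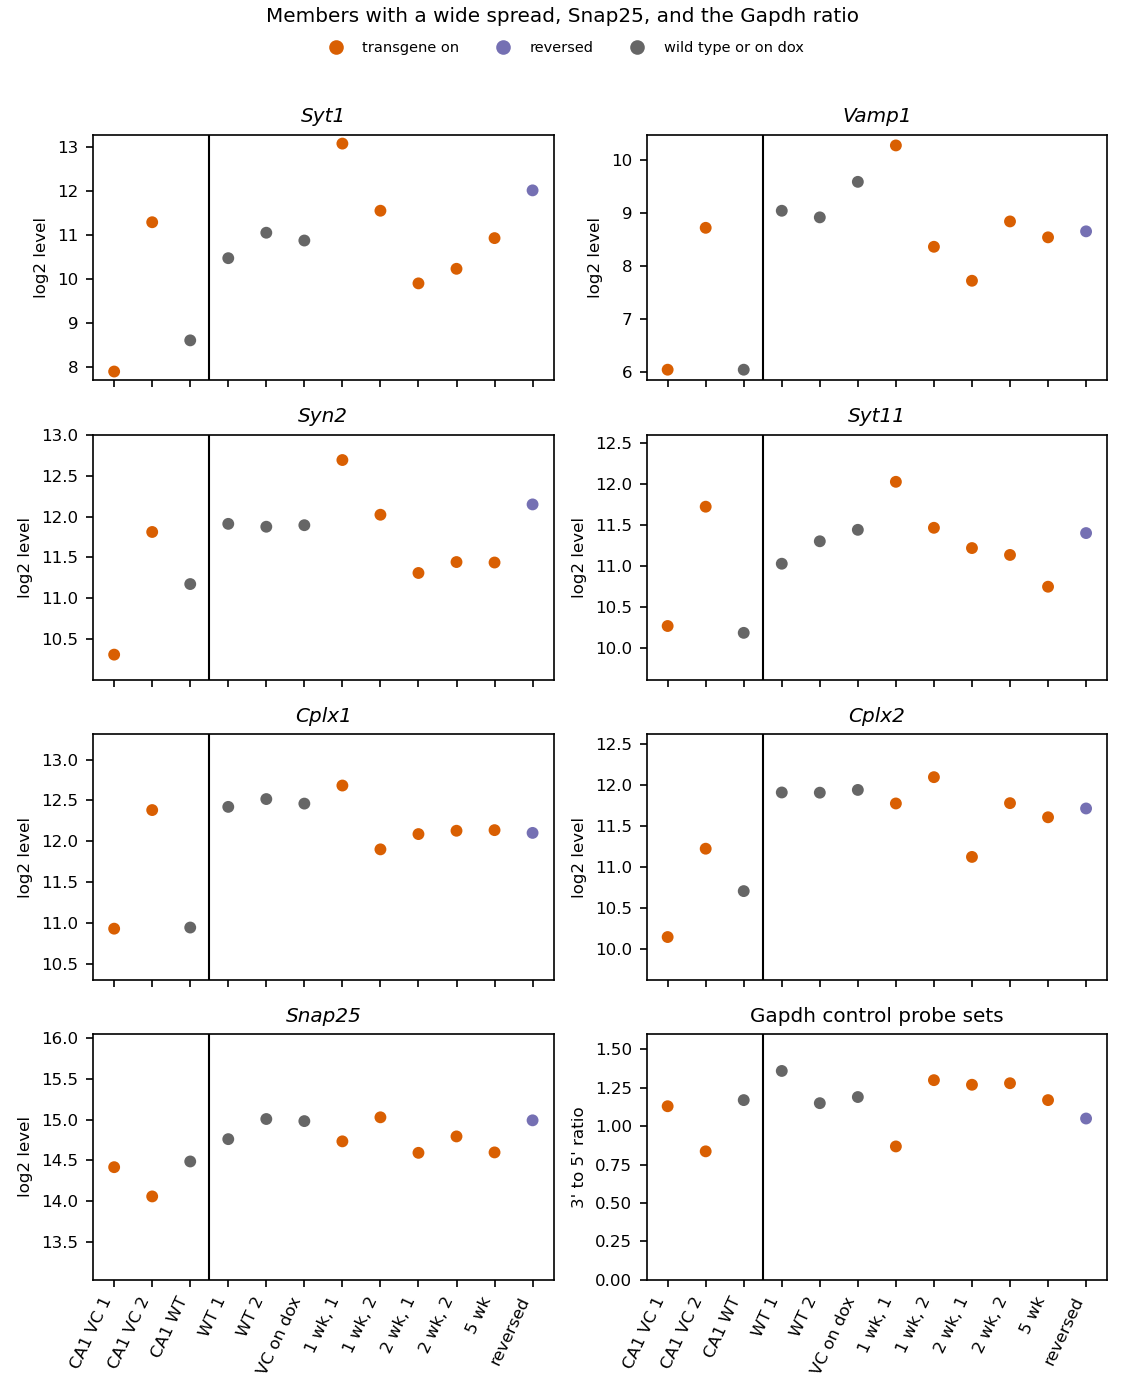
Log2 level of 7 genes on each array, and the 3' to 5' ratio of the Gapdh control probe sets in the last panel, with CA1 left of the line and whole hippocampus right of it. Each point is 1 array. Syt1, Vamp1, Syn2, Syt11 and Cplx1 are high on VC CA1 array 2 relative to the other CA1 arrays and highest in hippocampus on 1-week array 1. These are the 2 arrays with Gapdh ratios of 0.836 and 0.868. Cplx2 is also highest of the CA1 arrays on VC CA1 array 2, but in hippocampus it is highest on 1-week array 2 (12.10, with 11.78 on array 1). Snap25 shares neither feature.

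The largest differences lay between the CA1 samples and whole hippocampus. The contrast set the mean of the VC and wild-type CA1 levels against the mean of the induced and never-induced hippocampal levels. Of the 63 genes 20 passed (31.7%), where 35.9% of all 7069 probe sets passed. They divided into 17 lower in CA1 (27.0%, with 24.5% of all probe sets lower) and 3 higher (4.76%, with 11.4% of all higher). The median difference of the 63 genes was -0.21, and that of all tested probe sets was -0.13. A share near that of all probe sets is no mark of these genes, and the CA1 arrays share the lower deposited scale with only 1 hippocampal array.

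Lower in CA1 were 3 of the 6 tested vesicle SNAREs, all 3 tested SNAP family genes and 2 of 3 among Nsf and the complexins. The other groups had 1 of 2 vesicle proteins, 1 of 8 synaptotagmins, 1 of 9 syntaxins and 6 of 32 Rab symbols lower. Over all tested probe sets 24.5% were lower. Vamp4 read 9.75 and 10.92 in VC CA1 and 9.58 in wild-type CA1, against a lowest value of 11.11, a median of 11.31 and a highest value of 11.52 over the 9 hippocampal arrays. All 3 CA1 arrays lay below every hippocampal array, with a difference of -1.32 (SE 0.21, adjusted p = 0.00153, limma). A second tested probe set of Vamp4 gave -0.05, so the fall was seen with 1 of its 2 probe sets. Vamp1 fell by 2.25 on the log2 scale (SE 0.61, adjusted p = 0.0169, limma). It lay at the floor on 2 of the 3 CA1 arrays, and the other, VC CA1 array 2 at 8.71, lay inside the hippocampal range of 7.72 to 10.27. The difference was -1.58 without VC CA1 array 1, and with the mean of its probe sets it was -0.80 and did not pass (adjusted p = 0.163, limma). Vamp2 read 13.96, 13.63 and 13.97 in CA1, against 14.12, 14.31 and 14.43 as the lowest, median and highest hippocampal values, a difference of -0.43 (SE 0.13, adjusted p = 0.0259, limma). Its 2 probe sets gave -0.43 and -0.41, and with their mean it was at -0.42 and did not pass (adjusted p = 0.0745, limma).

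Of the plasma membrane SNAREs, Snap25 and Stx1a were lower in CA1. Snap25 read 14.42 and 14.06 in VC CA1 and 14.49 in wild-type CA1, against 14.59, 14.79 and 15.03 as the lowest, median and highest hippocampal values (difference -0.47, SE 0.14, adjusted p = 0.0269, limma). Stx1a read 10.99 and 10.96 in VC CA1 and 11.03 in wild-type CA1, against 11.25, 11.42 and 11.83 in hippocampus. The 3 CA1 arrays of Stx1a lay close together and below every hippocampal array (difference -0.53, SE 0.13, adjusted p = 0.0108, limma). Snap47 (-0.49) and Snap91 (-0.88) were lower too. Of the vesicle proteins, Syp read 12.15 and 11.53 in VC CA1 and 11.90 in wild-type CA1, against 12.18, 12.55 and 12.94 in hippocampus. That was a fall of Syp in all 3 CA1 arrays, by -0.76 (SE 0.18, adjusted p = 0.01, limma).

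Both complexins were lower in CA1, but not on every array. Cplx1 read 10.93 and 12.38 in VC CA1 and 10.95 in wild-type CA1, against 11.90, 12.14 and 12.68 in hippocampus (difference -1.03, SE 0.28, adjusted p = 0.017, limma). Cplx2 read 10.15 and 11.23 in VC CA1 and 10.71 in wild-type CA1, against 11.13, 11.78 and 12.10 in hippocampus (difference -1.10, SE 0.25, adjusted p = 0.00768, limma). For both genes VC CA1 array 2 lay inside the hippocampal range. Syt4 fell by 0.71 on the log2 scale (SE 0.12, adjusted p = 0.00174, limma) and was the only synaptotagmin of the 8 tested to pass. Syt1 had a value of -1.88 with a wide error (SE 0.78, adjusted p = 0.0829, limma).

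Of the Rab symbols, 6 of the 32 tested were lower in CA1 and 1 was higher, where 24.5% of all probe sets were lower and 11.4% higher. Rab2a, which acts between Golgi and endoplasmic reticulum, had the smallest p of the 63 genes. It read 11.70 and 12.22 in VC CA1 and 11.72 in wild-type CA1, against 12.51, 12.66 and 12.93 in hippocampus (difference -0.86, SE 0.14, adjusted p = 0.00147, limma). The others that fell were Rab1a (-0.72), Rab24 (-0.70), Rab28 (-0.61), Rab5a (-0.60) and Rab14 (-0.32), with Rab14 nearest the threshold (adjusted p = 0.0462, limma). With the mean of a gene's probe sets, Rab2a shrank to -0.43 and passed (adjusted p = 0.0111, limma). In that setting Rab14 was at -0.21 and did not pass (adjusted p = 0.411, limma), and Rab1a was not tested. Rab3b was higher in CA1, with 9.86 and 9.77 in VC CA1 and 9.87 in wild-type CA1, against 8.47, 9.18 and 9.85 in hippocampus (difference 0.57, SE 0.18, adjusted p = 0.0303, limma).

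The other genes that were higher in CA1 were Stx4a, a plasma membrane syntaxin of many cell types (0.52, adjusted p = 0.0329, limma), and Vamp8, an endosomal SNARE. Vamp8 read 11.40 and 11.10 in VC CA1 and 10.96 in wild-type CA1, against 10.13, 10.32 and 10.61 in hippocampus (difference 0.75, SE 0.13, adjusted p = 0.00207, limma). Its probe set is of the kind shared by related sequences, so signal from a relative cannot be told apart. CA1 lay below every hippocampal array for 9 of 63 genes (14.3%, with 16.8% of all probe sets) and above every one for 2 of 63 (3.17%, with 7.61% of all).

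**Figure D5:**
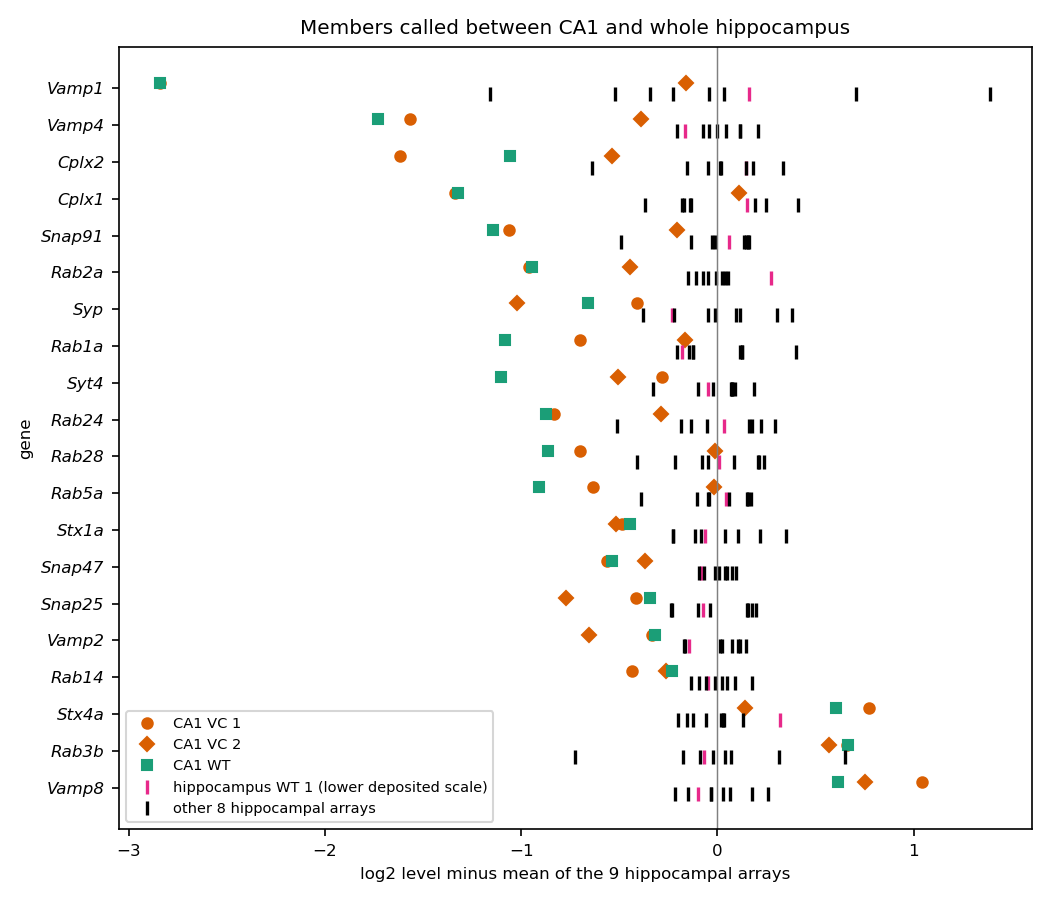
Log2 level minus the mean of the 9 hippocampal arrays for the 20 genes that passed between CA1 and whole hippocampus. Coloured symbols are the 3 CA1 arrays and ticks are the 9 hippocampal arrays, with the one on the lower deposited scale in pink. For Vamp1, Vamp4 and Cplx1 the second VC CA1 array lies far from the other CA1 arrays and near the hippocampal ticks, whereas Stx1a, Snap47 and Rab14 have all CA1 symbols together.

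The number of region calls depended on the deposited scale and on single arrays. With the deposited scale as a block, 1 of 63 genes passed (1.59%), where 4.07% of all probe sets passed. That gene was Rab2a, at -1.05 (adjusted p = 0.0469, limma). The differences of all 20 genes kept their direction under the block. They moved by over 1.5 times for 6 of the 20, and all 6 became smaller: Syp (-0.28), Stx1a (-0.24), Snap25 (-0.27), Vamp2 (-0.21), Rab14 (-0.18) and Stx4a (0.20). For others they were about as large, such as Vamp4 (-1.30), Cplx1 (-0.97), Cplx2 (-1.09) and Syt4 (-0.84). Leaving out wild-type hippocampus array 1 gave 18 genes (28.6%), with Rab14 and Rab3b lost, where 30.7% of all probe sets passed. Only wild-type hippocampus array 1 shares the scale of the CA1 arrays. Against that array alone, 16 of the 17 genes called lower read lower on all 3 CA1 arrays, the exception being Rab1a on VC CA1 array 2. Of the 3 called higher, 2 read higher on all 3. The genes were called from these same arrays, so such counts are no separate support for the calls. They were not made over all probe sets. Without VC CA1 array 2, 30 of 63 genes passed (47.6%), where 42.5% of all probe sets passed. That count shared 18 genes with the 20 above, lost Snap25 and Vamp2, and gained 12 that included Syt1 at -2.73 (adjusted p = 0.0107, limma), Syt11 at -1.06, Syn2 at -1.09, Rab6a at 0.83 and Syt7 at 1.09. Syt7 was bright enough to be tested on 2 arrays only, wild-type CA1 (8.60) and VC CA1 array 1 (8.36), with 8.03 as its highest hippocampal value. These are the CA1 arrays kept here, so its gain follows in part from the filter. Without VC CA1 array 2, Vamp4 was at -1.61 and Cplx1 at -1.39. Without both that array and 1-week array 1, Vamp4 was at -1.61 and Cplx1 at -1.33. Without VC CA1 array 1, 14 of 63 genes passed (22.2%), where 28.4% of all probe sets passed. Rab14, Rab24, Rab28, Rab3b, Rab5a and Stx4a were lost, and Cplx1 was at -0.66. Without the VC array kept on dox 14 genes passed as well (22.2%), where 29.6% of all probe sets passed. Rab14, Rab28, Rab3b, Snap25, Stx4a and Vamp2 were then lost. Without wild-type hippocampus array 2, 16 genes passed (25.4%), where 29.4% of all probe sets passed, with Rab14, Snap25, Stx4a and Vamp2 lost.

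Other genes of the vesicle cycle were read from a list of 76 genes, of which 49 were on the array and 45 were tested. None of the 45 passed in any comparison of induced, reversed or VC samples, and the number with an unadjusted p under 0.05 was 0 to 6 in each (limma). The highest share, 13.3%, was between VC and wild-type CA1, where 10% of all tested probe sets had one. Between CA1 and hippocampus 10 of the 45 were lower (22.2%, with 24.5% of all probe sets lower) and 0 higher (11.4% of all), so the share that was lower is near that of all probe sets. They included Dnm2, a dynamin that pinches off endocytic vesicles, at -1.36 (SE 0.18, adjusted p = 0.000599, limma). The proton pump subunits Atp6v0a1 and Atp6v1a, which acidify vesicles so that transmitter can be loaded, had -1.26 and -0.39. Stxbp3 (-0.75) and Stxbp2 (-0.46) bind syntaxins, Napb (-0.46) is the adaptor through which Nsf reaches the SNARE complex, and Gdi2 (-0.56) retrieves Rab proteins from membranes. Dnajc5 (-0.69), a vesicle chaperone, Synj2 (-0.66), a lipid phosphatase of vesicle uncoating, and Gosr2 (-0.54), a Golgi SNARE, completed the 10.

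The 14 genes that were too dim to test were Rab17, Rab20, Rab23, Rab35, Rab3d, Rab5b, Rab8b, Snap23, Syt6, Syt8, Syt9, Syt10, Stx8 and Vamp5. Syt6, Syt9 and Vamp5 lay at the floor on 8, 10 and 9 of the 12 arrays. Syt9 read 7.05 and 6.86 in VC CA1 and was at the floor on the other 10 arrays. Of 19 genes with several probe sets, 11 had more than 1 that was tested, and the region difference had opposite signs only for Rab7, at -1.04 and 0.14. Sizes were close for Rab10 (-0.54 and -0.53) but not for Syt3 (0.10 and 0.87) or Rab11a (-0.25 and -0.86). With the mean of a gene's probe sets 20 of 59 passed between regions (33.9%), where 34% of all tested genes did. That setting gained Rab11a, Rab31, Rab33b and Syt3, and lost Rab14, Rab1a, Vamp1 and Vamp2.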

How the data were processed

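The 12 samples, 9 of hippocampus and 3 of CA1, were each hybridised to 1 MG-U74Av2 array. The authors deposited 1 linear intensity per probe set and array. GCOS is the software listed in the submitters' processing notes, and the sources used here give no version, algorithm or scaling for it. The 66 Affymetrix control probe sets were left out. Arrays were multiplied to a common 2% trimmed mean of 1000, floored at the 20th percentile (65.7) and log2 transformed. A probe set was tested when above its array's median on at least 2 arrays. Tests used limma 3.58.1 (lmFit, eBayes) in R 4.3.3 over all 7069 probe sets, two-sided, and p-values were adjusted by Benjamini-Hochberg (threshold 0.05). A fit with 5 levels pooled the induction times, and a fit with 7 levels separated them. Groups of 1 array took their spread from the others. Precision is limited by how few arrays there were. The script was tested on simulated data. The members and lists were chosen with earlier results of these data known. Members named in the text passed a test, had 1 of the 5 smallest p-values of a comparison, or were among Syp, Syn1, Syn2, Nsf, Snap25, Stx1a, Vamp1, Vamp2, Syt1, Cplx1, Cplx2 and Rab3a; any other was chosen after its values were seen. Alternatives were the deposited values, quantile normalization, another floor, other filters, the scale as a block, an intensity trend, the mean of a gene's probe sets, a replicate block and leaving out arrays.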

Additional observations from a re-analysis of the deposited data

Results flagged for a closer look

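Of 38 named genes, 1 had a value far from the others among the 5 induced hippocampal arrays by Dixon's criterion. Vamp3 read 7.124 on 2-week array 1, where the nearest of the other induced arrays read 9.016 and the farthest 9.642, so that the gap was 0.751 of the range. Chance marks about 1 in 20 such groups.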

How the results depend on the processing

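In hippocampus no member passed in any comparison under any alternative run, and leaving out single arrays moved the members' median between induced and never-induced hippocampus from -0.06 to 0.01, and between VC and wild-type CA1 from -0.005 to 0.17. Without rescaling, values as deposited moved the members' median to 0.84 for induced, 0.90 for 1 week, 0.75 for 2 weeks, 0.83 for 5 weeks and 0.94 for reversed against never-induced hippocampus, to -0.70 for the CA1 effect minus the hippocampal effect and to -2.37 for CA1 against hippocampus, where 63 members were then called. This follows from wild-type array 1 and the CA1 arrays having the lower scale. Among the 38 named genes, the region difference turned negative on that scale for 12: Rab10os (-2.14), Rab26os (-2.13), Rab3a (-1.97), Rab3b (-1.58), Rab6a (-1.55), Rab7 (-2.01), Stx18 (-2.12), Stx4a (-1.63), Stx5a (-1.95), Syt3 (-2.06), Syt7 (-1.29) and Vamp8 (-1.41). With no filter on dim probe sets, 1 of 77 members, Syt9, was called for the difference of effects, where 228 of 12422 probe sets were called. Syt9 lay at the floor on 10 of the 12 arrays, so its calls rest on floored values without spread in hippocampus. Between VC and wild-type CA1, 2 of 77 members were called, where 292 of 12422 probe sets were. They were Syt4 (0.71, adjusted p = 0.0418, limma) and Syt9 (0.91). Leaving out VC CA1 array 1 gave 1 call there, Vamp4 (1.34, adjusted p = 0.0194, limma), and leaving out array 2 gave 0. Region calls ranged from 14 to 30 members when single arrays were left out, and 1 was called when a block for the deposited scale was fitted. The cause was not tested. Replicate numbers were shared by wild-type, 1-week and 2-week arrays, but their deviations correlated at only 0.04, 0.02 and -0.10, so the arrays share a number and no known pairing. With a replicate block, 0 members were called in each of the 3 comparisons, with medians of 0.01 for induced, 0.03 for 1 week and -0.12 for 2 weeks. Over all probe sets the calls varied from 0 to 5 between induced and never-induced hippocampus, from 2 to 83 at 5 weeks, from 0 to 292 between VC and wild-type CA1 and from 288 to 6802 between regions. Signal near the floor limits Vamp1 in CA1 and the 14 untested members.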
